A study of Homo sapiens with 6 samples.

Results

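Peaks near 7 genes of the actin cytoskeleton and of cell adhesion were examined: VCL, MYH9, ACTN1, CALD1, TPM1, CAV1 and MYOF. A peak was counted for a gene when it lay within 100 kb of the gene's span in the hg19 genome build, which was taken to the nearest kb. Of 22804 peaks in 3 lists, 36 met this rule: 2 of 3867 in the YAP list, 26 of 9321 in the TEAD list and 8 of 9616 in the YAP5SA list. Nearness is the only link between these peaks and the genes.

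The lists came from chromatin immunoprecipitation followed by sequencing (ChIP-seq) in CClp1, an established human cell line from a bile duct cancer, with 1 library per group. The groups used here were a YAP antibody, a TEAD antibody (the series' design text names TEAD1) and Flag-Bio-YAP5SA, a tagged YAP mutant called YAP5SA here, in which serines that LATS kinases phosphorylate are replaced. All were fixed for 10 min in 1% formaldehyde. The IgG, input and BirA libraries, BirA being the control of the tagged protein in the design text, were not used here, so no background stands beside the counts. The YAP library is 1 of several YAP runs in that text, and which run was not established. No replicates, read depths or expression values were used, so each value below describes a list and carries no replicate error or test of conditions.

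The Hippo pathway restrains YAP, a co-activator of transcription that does not bind DNA itself and reaches it mainly through TEAD proteins. Tension on the actin cytoskeleton and attachment to the matrix are known to keep YAP in the nucleus, and genes for cytoskeletal and adhesion proteins are among those that YAP and TEAD are known to act on. Many such genes also respond to SRF, which binds the CArG box.

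The 7 genes cover several roles. VCL encodes vinculin, which links adhesion sites to actin, and ACTN1 encodes alpha-actinin-1, which cross-links actin filaments. MYH9 encodes the heavy chain of non-muscle myosin IIA, the motor that contracts them. CALD1 (caldesmon) and TPM1 (tropomyosin 1) encode proteins that lie along actin filaments and regulate that motor. CAV1 encodes caveolin-1, the coat protein of caveolae, which are pits in the plasma membrane that flatten under tension, and MYOF encodes myoferlin, which acts in membrane repair and fusion.

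The 4 promoter sequences printed here, of CAV1, VCL and MYH9, are given for the letters that stand at their starts. Each runs from 250 bases before to 50 bases after a transcription start, 5′ to 3′ on the gene's strand, from RefSeq on GRCh38.p14, which is another build than that of the peaks, so that no peak was placed on them. CAV1 was the only gene of the 7 with a peak within 1 kb of the 5′ end of its span, and its first and last listed starts, 1353 bp apart, are shown for that reason. VCL and MYH9 were chosen after the values were seen, as a gene with TEAD peaks only deep in its body and a gene with none. Capitals mark GGAATG or its reverse complement CATTCC, the core of the site that TEAD proteins bind.
CAV1, first start, chr7:116524759-116525058, plus strand: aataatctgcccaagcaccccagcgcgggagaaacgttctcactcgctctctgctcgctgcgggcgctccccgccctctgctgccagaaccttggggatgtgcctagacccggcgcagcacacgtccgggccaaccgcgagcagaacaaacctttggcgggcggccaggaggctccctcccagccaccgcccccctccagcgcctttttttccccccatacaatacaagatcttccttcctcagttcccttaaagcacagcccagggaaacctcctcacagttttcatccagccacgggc
CAV1, last start, chr7:116526112-116526411, plus strand: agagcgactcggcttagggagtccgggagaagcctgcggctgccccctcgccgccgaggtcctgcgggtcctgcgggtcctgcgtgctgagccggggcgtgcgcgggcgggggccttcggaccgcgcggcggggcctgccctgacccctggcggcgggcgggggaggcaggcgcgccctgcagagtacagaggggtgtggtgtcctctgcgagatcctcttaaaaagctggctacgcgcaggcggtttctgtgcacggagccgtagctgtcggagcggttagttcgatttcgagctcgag
VCL, chr10:73997866-73998165, plus strand: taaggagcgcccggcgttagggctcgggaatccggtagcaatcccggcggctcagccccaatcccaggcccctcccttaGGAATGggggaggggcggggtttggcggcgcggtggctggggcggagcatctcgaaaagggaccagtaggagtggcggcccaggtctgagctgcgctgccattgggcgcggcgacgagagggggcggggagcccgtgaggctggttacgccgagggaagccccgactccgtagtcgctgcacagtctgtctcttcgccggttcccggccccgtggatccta
MYH9, chr22:36387918-36388217, minus strand: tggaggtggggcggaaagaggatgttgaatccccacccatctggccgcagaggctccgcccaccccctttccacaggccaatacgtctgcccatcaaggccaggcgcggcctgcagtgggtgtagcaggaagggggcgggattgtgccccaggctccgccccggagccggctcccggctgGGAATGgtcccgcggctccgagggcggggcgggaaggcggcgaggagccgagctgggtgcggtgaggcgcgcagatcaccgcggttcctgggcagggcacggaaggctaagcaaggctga

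All 7 genes had a promoter in the table, with 15 starts in all. GGAATG on either strand was found at a start of 4 of the 7 genes, VCL, MYH9, ACTN1 and CALD1, while 16.7% of all 27305 genes in the table had it. It stood in 5 of the 15 promoters, against 14% of all 35116. ACTN1 and CALD1 had 4 listed starts each, and a gene with more starts has more promoters in which a match can fall. For AP-1 the pattern TGANTCA was searched on both strands, with N as any base. It was found at 1 gene, CALD1, as TGATTCA (9.37% of all genes had a match of the pattern). The CArG box was found at 1 gene, ACTN1 (1.60% of all genes). These motifs did not overlap one another in the promoters searched. No promoter of CAV1, TPM1 or MYOF held any of the 3 motifs. The GGAATG match began 171 bases before the start in VCL and 70 bases before it in MYH9. Of the 4 genes with GGAATG, VCL had TEAD peaks within 100 kb and the other 3 had 0. A match is a stretch of letters and not a measured site, and the DNA under the peaks was not examined.

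TEAD peaks were many at 2 genes, few at 2 and missing at 3. CAV1 had 14 TEAD peaks within 100 kb, MYOF 7, TPM1 3 and VCL 2, whereas MYH9, ACTN1 and CALD1 had 0. YAP5SA peaks numbered 4 at CAV1, 2 at ACTN1, 1 at MYH9 and 1 at TPM1, and 0 at VCL, CALD1 and MYOF. The YAP list held 1 peak at VCL and 1 at TPM1, and 0 at the other 5 genes. TPM1 was the only gene with a peak of every list, and CALD1 the only gene with no peak of any.

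**Figure D1:**
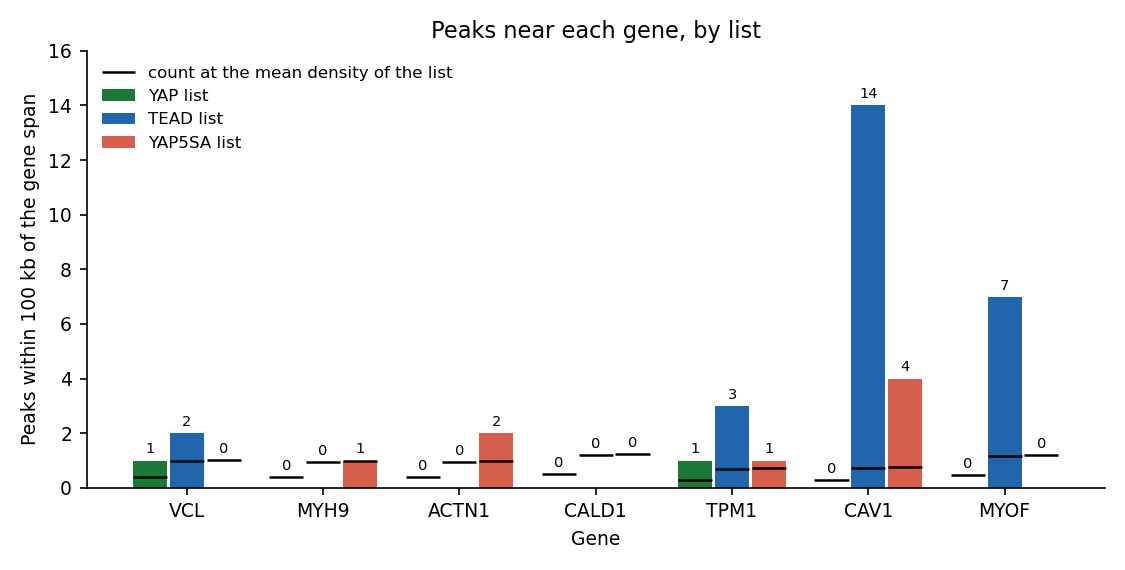
Number of peaks within 100 kb of each gene span (y axis) for the 7 genes (x axis), with 1 bar per list; the black line at each bar is the count that the mean density of that list would give in a window of that length. CAV1 stands highest with 14 TEAD peaks against a line at 0.725, followed by MYOF with 7 against 1.16, and CALD1 has no bar.

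The 7 windows measured 229 to 391 kb and 2.17 Mb in all. They held 12.0 TEAD peaks per Mb, 3.91 times the density of 3.07 per Mb over the whole list, and 3.69 YAP5SA peaks per Mb, 1.16 times that list's 3.19. YAP peaks stood at 0.923 per Mb, 0.729 times the 1.27 of the whole list. CAV1 decided much of this: without it the other 6 windows held 6.22 TEAD peaks per Mb, 2.02 times the list, and 2.07 YAP5SA peaks per Mb, 0.650 times. When the main chromosomes were divided into bins of the mean window length of 309.4 kb, 37.5% of bins held a TEAD peak, 58.3% a YAP5SA peak and 28.8% a YAP peak. The members with a peak were 4 of 7 for TEAD, 4 of 7 for YAP5SA and 2 of 7 for YAP, so that for YAP5SA and YAP the count was near that of any stretch of the genome. CAV1 and MYOF stood out by the number of peaks. Of 12718 bins as long as the CAV1 window, 50 (0.393%) held at least 14 TEAD peaks and 182 (1.43%) at least 4 YAP5SA peaks. At the length of the MYOF window, 3.12% of bins held at least 7 TEAD peaks. The same shares were 7.13% for the 3 TEAD peaks of TPM1 and 18.9% for the 2 of VCL. Bins in assembly gaps or in repeats were not removed.

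Placed by distance from each gene's 5′ end, TEAD peaks lay both near the starts of CAV1, MYOF and TPM1 and far from them. Of the 26, 11 lay in a gene span and 15 in the 100 kb on either side. The spans held 14.4 TEAD peaks per Mb, and 4 of 7 spans held at least 1. Of the 8 YAP5SA peaks 1 lay in a span, that of CAV1, which gave 1.31 per Mb of span against 3.19 over the list. Of the other 7, 6 lay upstream, 3 at CAV1 and 1 each at TPM1, MYH9 and ACTN1. The spans make up 0.766 Mb of the 2.17 Mb of windows, and 8 peaks are too few to show a preferred side. Distances to a 5′ end carry the rounding of the spans to 1 kb.

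**Figure D2:**
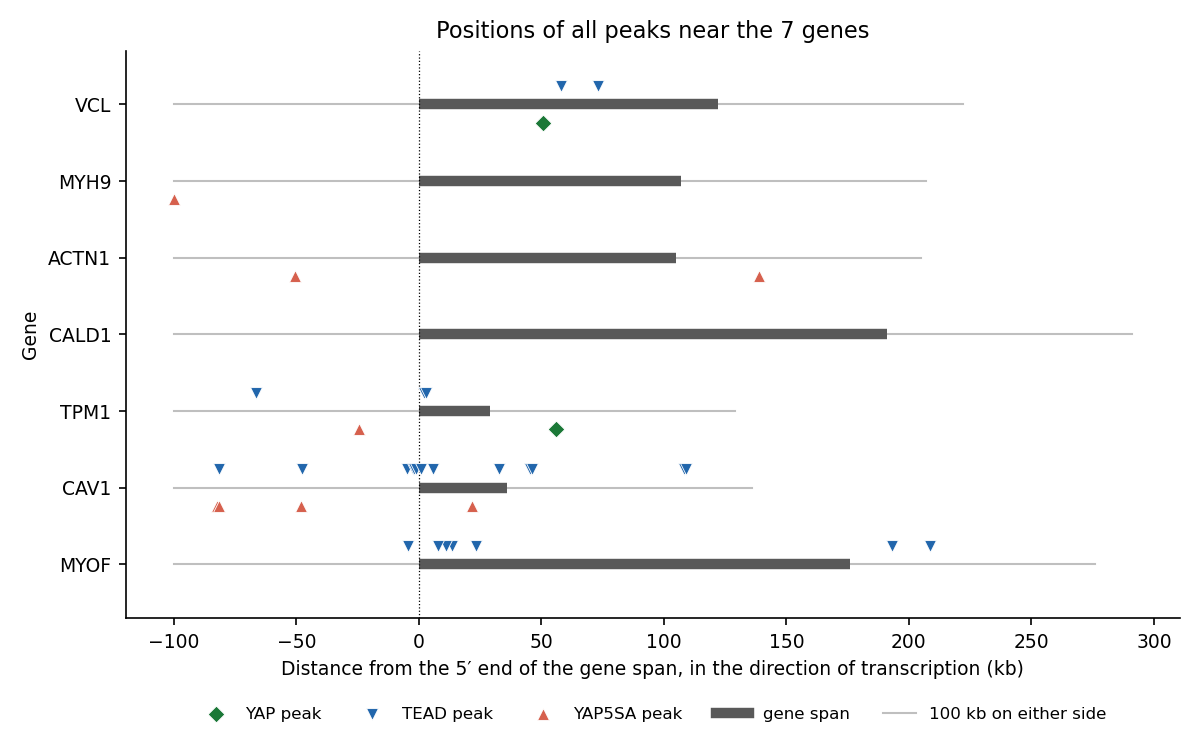
Centres of all 36 peaks by distance from the 5′ end of the gene span in kb (x axis, direction of transcription to the right), with 1 row per gene (y axis); thick bars are gene spans, thin lines the 100 kb on either side, triangles pointing down TEAD, triangles pointing up YAP5SA and diamonds YAP peaks. At CAV1 6 TEAD peaks lie close to 0, at MYOF 5 lie from 4.5 kb before the span to 23.3 kb into it, and the CALD1 row is empty.

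CAV1 spans 116165 to 116201 kb on chromosome 7, on the plus strand. Its neighbours in gene order are CAV2 upstream and MET downstream, which encode caveolin-2 and the receptor of hepatocyte growth factor. The hg19 positions of these neighbours were not used, so whether a peak near CAV1 lies in or beyond either was not established. The strongest TEAD peak at CAV1 stood far upstream, on chromosome 7 from 116083039 to 116083485, 81.5 kb before the span. This peak was 447 bp wide and scored 787.18, more than 97.8% of the TEAD list. The score is the authors' value for each peak. It was taken to be 10 times the negative log10 of a p-value, a reading that rests on the range of the values. A YAP5SA peak from 116083223 to 116083380 lay wholly inside it, with its centre 39.5 bp from that of the TEAD peak and a score of 57.78, above 52.5% of the YAP5SA list. A further YAP5SA peak, from 116082513 to 116082678 (score 52.17), ended 0.360 kb from the TEAD peak. The nearest YAP peak was 171 kb from it.

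A weaker meeting of the same lists lay between that site and the CAV1 span. The TEAD peak from 116117038 to 116117284, 47.7 kb upstream, scored 110.59, and the YAP5SA peak from 116117065 to 116117201, again wholly inside it, scored 52.17. Their centres were 28 bp apart. Of the 36 peaks, these 2 pairs were the only ones that overlapped a peak of another list.

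Around the CAV1 start, 6 TEAD peaks formed a cluster of 10.5 kb, from 116160257 to 116170776. Peaks of 1 list formed a cluster where at least 3 followed one another with gaps of at most 12500 bp. Upstream of the start, the 4 peaks scored 66.09, 97.37, 141.32 and 232.73, rising toward the gene, and lay 4.6, 2.4, 1.9 and 1.1 kb before the span. The highest of them, from 116163672 to 116163918, scored above 86.9% of the list. Downstream, the peak from 116165939 to 116166103 began 938 bp inside the span and scored 58.82, and that from 116170614 to 116170776 scored 61.41. The cluster held 0 YAP and 0 YAP5SA peaks. Of the 559 TEAD clusters in the list, 113 (20.2%) had 6 or more peaks.

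Lower-scoring TEAD peaks lay at the 3′ side of the gene. A cluster of 4, from 116197617 to 116211374, ran from inside the span to 10.2 kb past it, with scores of 55.16 to 68.98 and 2 of its peaks only 40 bp apart. Of the 559 TEAD clusters in the list, 318 (56.9%) had 4 or more peaks. Farther out, 2 peaks at 72.3 and 72.9 kb past the span scored 74.74 and 100.57. Between 100 and 200 kb from the span, 13 further TEAD peaks were listed, 8 on this side and 5 upstream, the nearest of them from 116324900 to 116325059 (score 53.45).

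The strongest YAP5SA peak of the 8 stood alone in the CAV1 span. It ran from 116186563 to 116186726, scored 96.53, above 96.5% of the YAP5SA list, and its nearest TEAD peak was 10.9 kb away. Of the 337 YAP5SA peaks in the list with at least this score, 193 (57.3%) overlapped a TEAD peak and 144 did not.

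**Figure D3:**
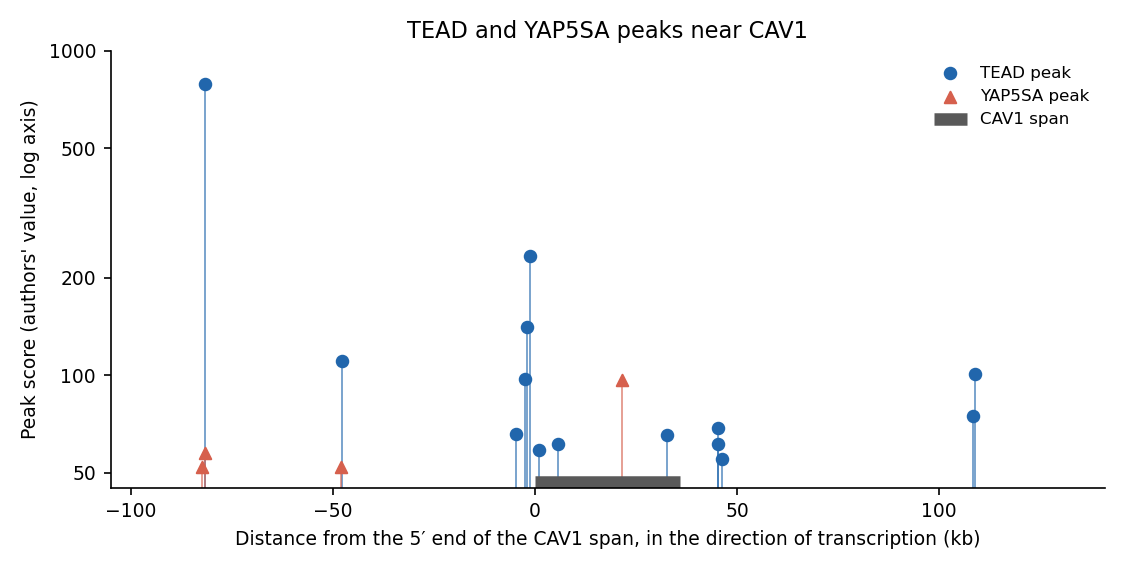
Score of each TEAD peak (circles) and YAP5SA peak (triangles) near CAV1 on a log axis (y) against the distance of its centre from the 5′ end of the CAV1 span in kb (x, direction of transcription to the right); the grey bar is the CAV1 span. The highest TEAD peak, 787.18, stands 81.5 kb before the span, above 2 YAP5SA peaks, and 6 TEAD peaks flank the start.

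MYOF, on the minus strand of chromosome 10 from 95066 to 95242 kb, between CYP26A1 and CEP55 in gene order, had the highest-scoring TEAD peaks inside a span of the 7. The peak from 95246479 to 95246706 lay 4.5 kb upstream of the start and scored 65.83. Inside the gene, within 23.3 kb of the start, 4 peaks followed in the direction of transcription: 95234026 to 95234281 (score 125.96), 95230882 to 95231145 (137.06), 95228274 to 95228648 (129.06) and 95218534 to 95218832 (188.69). These 4 scored above 73.4% to 83.1% of the TEAD list, and with the upstream peak they formed a cluster of 28.2 kb. Clusters with 5 or more peaks made up 32.4% of all TEAD clusters.

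The rest of the gene body held no peak of any list. Past its 3′ end, a peak from 95048694 to 95049049, 17.0 kb away, had the highest score at MYOF, 223.27, above 86.1% of the list, and a peak 32.5 kb away scored 53.21. Neither YAP nor YAP5SA came near: the nearest peaks of those lists lay 249.9 kb and 122.6 kb from the span. Of the 1299 TEAD peaks in the list that scored at least 223.27, 344 (26.5%) overlapped a YAP5SA peak and 163 a YAP peak.

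TPM1 is the shortest of the 7 genes, from 63335 to 63364 kb on the plus strand of chromosome 15, between TLN2 and LACTB in gene order. TEAD peaks stood 2.1 and 2.8 kb past its 5′ end, 524 bp apart: 63336991 to 63337217 (score 116.42) and 63337742 to 63337941 (65.25). The highest-scoring one, from 63268452 to 63268711 (134.53, above 75.3% of the list), lay 66.3 kb upstream. The YAP5SA peak, from 63310301 to 63310440, scored 50.95, near the lowest listed value of 50, and was 26.6 kb from a TEAD peak. The YAP peak, from 63390468 to 63391061, lay 26.5 kb past the 3′ end with a score of 52.81, and 52.5 kb from a TEAD peak. All 3 lists were thus present at TPM1, with no overlap among their 5 peaks.

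VCL, from 75758 to 75880 kb on the plus strand of chromosome 10, carried its peaks deep in the gene and none near the start. AP3M1 overlaps VCL in the RefSeq gene table. The 2 TEAD peaks, from 75815781 to 75815938 (score 65.48) and from 75830988 to 75831176 (98.97), lay 57.9 and 73.1 kb past the 5′ end. The YAP peak, from 75808604 to 75808930, scored 57.70, close to the median of its list (57.9), and was 6.85 kb from the nearer TEAD peak. This was the shortest distance between a YAP and a TEAD peak at the 7 genes.

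MYH9 and ACTN1, which encode the motor and the cross-linker, had YAP5SA peaks only. At ACTN1, from 69341 to 69446 kb on the minus strand of chromosome 14, the peak from 69307059 to 69307154 (score 57.20) lay 33.8 kb past the 3′ end and that from 69496249 to 69496555 (53.39) 50.2 kb upstream. Both were far from TEAD peaks, at 267 and 77.1 kb. At MYH9, from 36677 to 36784 kb on the minus strand of chromosome 22, the single peak from 36883878 to 36884067 (52.29) lay 99.9 kb upstream, just inside the limit, and 461 kb from any TEAD peak. The next YAP5SA peak outside the MYH9 window, from 36948878 to 36949110, scored 76.30 at 164.9 kb. The nearest TEAD peak to the span was 254.2 kb away for MYH9 and 127.7 kb for ACTN1, where it scored 71.20 (69573698 to 69573858).

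CALD1, the longest span of the 7 (134464 to 134655 kb on the plus strand of chromosome 7), had its nearest TEAD peak 925.8 kb away, from 133537879 to 133538194 (score 175.58). Its nearest YAP peak was at 170.2 kb (score 53.34) and its nearest YAP5SA peak at 206.6 kb (57.18). At the length of this window 43.6% of bins held a TEAD peak, 66.3% a YAP5SA peak and 34.8% a YAP peak, so that an empty window was not rare in any list.

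Within the TEAD list the member peaks ranked somewhat above the middle, with a median rank above 64% of the list, or 72% without CAV1. Their median score was 98.2 against 76.2 for the list, and 14 of 26 scored above the list's median. Only 1 of 26, the peak upstream of CAV1, was among the highest-scoring 10%. The genes differed here too. MYOF peaks had a median score of 129 and 5 of 7 above the list's median, while the more numerous CAV1 peaks had a median of 71.9 and 6 of 14 above it. Widths ran from 129 to 447 bp with a median of 202 bp, against 214 bp in the list, so no member was a broad peak. The 8 YAP5SA peaks had a median score of 52.8 against 57.0 in their list, and the 2 YAP peaks scored 52.81 and 57.70 against 57.9.

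**Figure D4:**
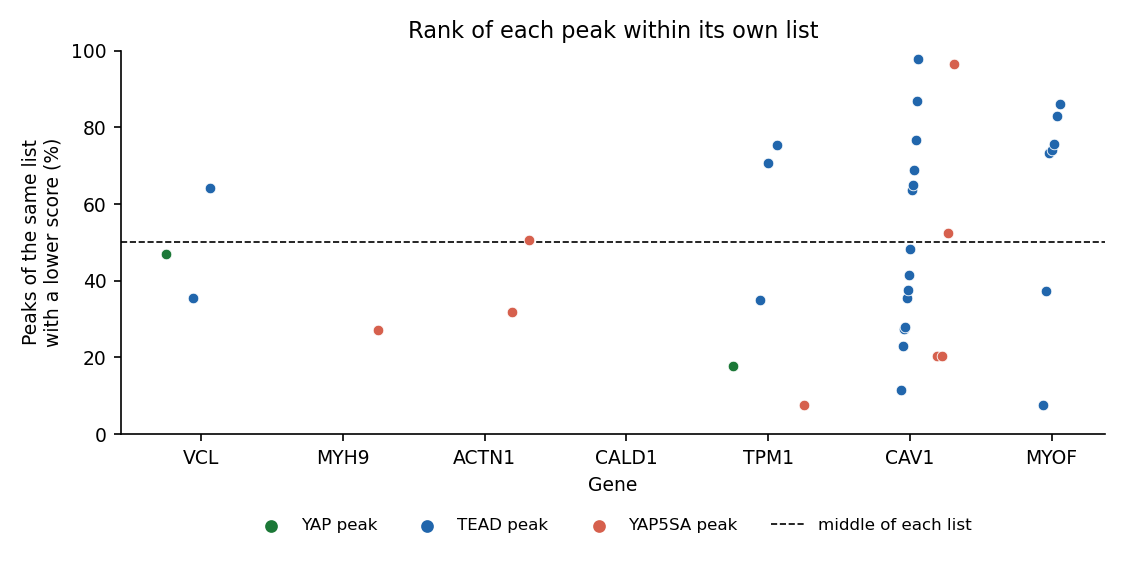
Percent of peaks of the same list with a lower score (y axis) for each of the 36 peaks, by gene (x axis) and list (colour); the dashed line marks the middle of each list. The MYOF peaks include 5 between 73.4% and 86.1%, whereas the CAV1 peaks spread from 11.6% to 97.8%.

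Clustering and overlap were read against the whole lists. Of the 26 TEAD peaks, 15 lay in 3 clusters (57.7%, exact Clopper-Pearson 95% interval 36.9 to 76.6), against 29.5% of the list. The 3 clusters lay at CAV1 and MYOF. Without CAV1 the count was 5 of 12 (41.7%, 15.2 to 72.3), an interval that includes the share of the list. Peaks within a cluster are not independent, so this interval is too narrow, as are those that follow, which cover counting error only. A YAP5SA peak was met by 2 of the 26 TEAD peaks (7.69%, 0.946 to 25.1), a share whose interval includes the 5.49% of the list. A YAP peak was met by 0 of 26 (0%, 0 to 13.2), against 4.48% of the list, so a difference was not detectable with this number of peaks. Of the 8 YAP5SA peaks 2 met a TEAD peak (25%, 3.19 to 65.1), against 5.44% of the list, and 0 met a YAP peak, against 1.15%. The 2 YAP peaks met neither TEAD (8.28% of the list) nor YAP5SA (2.64%). Both other lists were met by 0 of the 26 TEAD peaks at these genes and by 77 of the 9321 in the list (0.826%), a share at which 26 peaks are too few to show a difference.

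The CAV1 peak with the score of 787.18 can be set beside TEAD peaks at least as strong. There were 208 in the list, of which 117 (56.2%) overlapped a YAP5SA peak and 77 (37%) a YAP peak. Like most of these 208 peaks, it overlapped a YAP5SA peak and no YAP peak. Its width of 447 bp was below their median of 610 bp. The set has no upper limit of score, and 787.18 is the lowest score in it. These shares and this median therefore need not hold for peaks close to its own score.

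Distances between TEAD and YAP5SA peaks differed among the genes. The median distance from a TEAD peak to the nearest YAP5SA peak was 26.9 kb at the 7 genes and 75.4 kb in the list, and from a YAP5SA peak to the nearest TEAD peak 18.7 kb against 178 kb. The shorter medians came from CAV1. Without it, a split chosen after the values were seen, the median was 249 kb for the other 12 TEAD peaks, longer than in the list. For the other 4 YAP5SA peaks it was 172 kb, close to the list. The 12 were not alike. Those of TPM1 lay 26.6 to 41.6 kb from a YAP5SA peak, those of VCL 241 and 256 kb and those of MYOF 90 to 303 kb. Of the 12, 5 belonged to the MYOF cluster, so the 249 kb does not describe each gene. From a TEAD peak to the nearest YAP peak the medians were 211 and 214 kb.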

How the data were processed

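Each of the 3 libraries used here has 1 peak list. The submitters' processing notes name Bowtie2 and the hg19 build. Per the file contents, each deposited list gives a position, a name with the prefix MACS and the authors' score, from 50 to 3100. The caller's version, threshold and control library are not given in the sources used, the 3 lists may share a control, and read depth is unknown, so how many weak peaks each could hold is unknown too.

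Starts were taken as 0-based, and 1 start below 0 was set to 0. Printed positions are 1-based. The members and lists were chosen with earlier results of these data known. Strand, gene order and promoters came from RefSeq tables on GRCh38.p14, whose coordinates were not compared with the peaks. Peaks overlapped when they shared at least 1 bp. Rank is the percent of a list with a lower score. Densities and bins used the main chromosomes from the first to the last base with a peak, 3004 Mb in all. With 1 library per group no test was run. For each gene the text gives its count in every list, the highest-scoring TEAD peak and every YAP and YAP5SA peak. Printing further TEAD peaks of CAV1, MYOF, TPM1 and VCL went beyond the planned rule and was decided after the values were seen. Planned counts at further cytoskeletal genes were not run, since no hg19 annotation was used here. Alternatives changed the distance, the overlap, the score threshold, the list length, the peak width and the cluster gap, or left out CAV1. Overlap counts equalled those of bedtools 2.31.1. Tested on simulated lists, the code recovered all 200 planted overlaps for TEAD in YAP5SA and all 150 planted members of TEAD clusters among 9321 peaks. Software was Python 3.11.15 with pandas 2.3.3, scipy 1.17.1, numpy 2.4.6 and matplotlib 3.10.9.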

Additional observations from a re-analysis of the deposited data

How the results depend on the processing

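Of 56 values recomputed for 8 results, 39 stayed within 1.5 times for a count, within the 95% interval for a share or within 1 SD for the median rank, and 17 did not. The 26 TEAD, 8 YAP5SA and 2 YAP peaks became 11, 1 and 1 when a peak had to overlap the span, and 43, 14 and 6 within 200 kb. Within 50 kb there were 4 YAP5SA peaks. In the higher-scoring 50% of each list there were 14, 3 and 0, and with lists limited to the 3867 highest-scoring peaks 14 TEAD peaks and 1 YAP5SA peak. Without CAV1 12 TEAD and 4 YAP5SA peaks were left. The share of TEAD peaks that met YAP5SA, 7.69%, was 0% in the spans, 0% with lists of 3867 peaks and 0% without CAV1, so it rests on the 2 sites upstream of CAV1. It was 3.85% with a reciprocal overlap of 50%. Under every setting run, 0 TEAD peaks at the genes met a YAP peak. Only the 200 kb distance could have raised this 0. Counting peak centres within 250 bp could not, since no TEAD peak within 100 kb of the genes lay closer than 6.85 kb to a YAP peak. The other settings only removed peaks or tightened the overlap. These zeros, and those for TEAD peaks that met both other lists, are among the 39 values that stayed. The clustered share ran from 41.7% (15.2 to 72.3), without CAV1, to 68.2%, within 50 kb, and the median rank from 52.5% to 72%. No paired analysis was possible because there is a single library for each antibody, and no replicate could be left out.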
